A study of Mus musculus with 12 samples.

Results

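The 10 genes described here build the MHC class I antigen presentation machinery of fibroblast-like synoviocytes, stromal cells grown here from the lining of mouse joints. They were chosen by name: the class I heavy chains H2-D1 and H2-K1, the light chain B2m, the peptide loading genes Tap1, Tap2 and Tapbp, the immunoproteasome subunits Psmb8, Psmb9 and Psmb10, and the class I transactivator Nlrc5. All 10 were found among the 36875 gene symbols of the read-count table, and all 10 were among the 15049 genes that passed the filter on low counts. Poly(A) RNA was sequenced in 12 libraries, 4 in each of 3 groups. The resolution group came from mice given doxycycline (1 mg/ml, in water with 5% sucrose) for 3 weeks and then taken off it. The inflammation group came from mice still on that drink at 3 weeks, and the homeostasis group from mice on 5% sucrose water alone for 3 weeks, which the sample descriptions call WT. The protocol names mice with TNF-induced inflammatory arthritis for all libraries, and it gives neither the transgene and its promoter, the strain and H2 haplotype, the time since withdrawal, nor whether each library is a different animal. P-values therefore measure the spread between these libraries, which may be technical. The series asks how synoviocytes in the resolution phase impair endothelial cells.

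MHC class I molecules carry short peptides from inside the cell to its surface, where CD8 T cells read them. Most of these peptides are cut by the proteasome, whose constitutive catalytic subunits are replaced in the immunoproteasome by Psmb8, Psmb9 and Psmb10. The peptides are pumped into the endoplasmic reticulum by the Tap1 and Tap2 dimer and loaded, with the help of tapasin (Tapbp), onto a heavy chain paired with beta-2-microglobulin. Interferons raise the whole set in many cell types through STAT and IRF factors, and Nlrc5 acts on the class I promoters through the factors bound there.

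The promoters of the heavy chains, the light chain and the Psmb9 and Tap1 pair are shown first. They are not all the genes that rose: Psmb8 and Tapbp also rose in resolution against homeostasis, as given below, and are not printed. Upstream sequence was taken from RefSeq (GRCm38.p6), 250 bases before the start site that RefSeq gives, and was given for 8 of the 10 genes. The 2 without an entry were Tap2 and Nlrc5. RefSeq starts differ from those of the GENCODE loci given further on: by 364 bases for H2-D1 and 434 for Psmb9, whose GENCODE genes begin further upstream and so include the stretches shown, and by 0 for H2-K1, 1 for B2m and 3 for Tap1. Below are H2-D1 (chr17:35262844-35263093, plus strand), H2-K1 (chr17:34000348-34000597, minus strand), B2m (chr2:122147437-122147686, plus strand) and the 225 bases between the RefSeq start sites of the divergent neighbours Psmb9 and Tap1 (chr17:34187331-34187555, plus strand, with Psmb9 leaving to the left and Tap1 to the right). All run 5′ to 3′, and capitals mark a match, on either strand, to any of the motifs AANNGAAA (the core read by interferon regulatory factors), TTCNNNGAA (the interferon gamma activated site), GGGNNTTCC (an NF-kB element), TGACG (the cyclic AMP response element core of the X box) and CCAAT (the Y box).
H2-D1: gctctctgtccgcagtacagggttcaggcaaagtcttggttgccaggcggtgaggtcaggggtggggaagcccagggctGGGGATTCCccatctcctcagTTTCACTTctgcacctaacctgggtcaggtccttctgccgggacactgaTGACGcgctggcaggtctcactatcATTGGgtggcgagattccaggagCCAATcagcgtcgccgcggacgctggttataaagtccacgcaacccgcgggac
H2-K1: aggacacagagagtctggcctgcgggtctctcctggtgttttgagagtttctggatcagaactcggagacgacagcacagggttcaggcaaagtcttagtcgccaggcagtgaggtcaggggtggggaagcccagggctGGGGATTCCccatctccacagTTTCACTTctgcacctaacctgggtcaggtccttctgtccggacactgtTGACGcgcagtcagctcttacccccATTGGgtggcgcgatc
B2m: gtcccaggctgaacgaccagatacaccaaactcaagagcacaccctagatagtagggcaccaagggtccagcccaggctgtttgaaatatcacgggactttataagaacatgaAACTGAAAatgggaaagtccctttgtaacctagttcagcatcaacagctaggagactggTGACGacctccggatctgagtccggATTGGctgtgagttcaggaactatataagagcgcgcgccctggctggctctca
Psmb9 to Tap1: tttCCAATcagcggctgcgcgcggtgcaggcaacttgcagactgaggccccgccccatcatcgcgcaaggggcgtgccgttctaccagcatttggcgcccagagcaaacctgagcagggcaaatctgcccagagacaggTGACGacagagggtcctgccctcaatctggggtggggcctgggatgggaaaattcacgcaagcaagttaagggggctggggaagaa

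H2-D1 and H2-K1 carried the same motifs in the same order, an NF-kB element, an interferon regulatory factor core, TGACG and CCAAT, of which H2-D1 had CCAAT at 2 places and H2-K1 at 1. Their upstream sequences could be aligned over 177 bases, of which 161 were identical (91.0%). B2m had the interferon regulatory factor core, TGACG and CCAAT but no match to the NF-kB letters. The stretch between Psmb9 and Tap1 had 1 TGACG and 1 CCAAT. Psmb10 matched none of the 5 motifs, Tapbp matched CCAAT alone and Psmb8 the interferon gamma activated site alone. Their GENCODE genes begin further upstream than the RefSeq starts, by 52 bases for Psmb10, 3579 for Tapbp and 474 for Psmb8. A missing match therefore holds only for the 250 bases before the RefSeq start. Of the 8 genes with a sequence, 3 held the interferon regulatory factor core, 1 the interferon gamma activated site, 2 the NF-kB element, 5 TGACG and 6 CCAAT. Of all 32851 RefSeq windows of 250 bases, 21.3%, 7.02%, 4.98%, 17.8% and 33.8% held the same motifs in that order. The TGACG and the CCAAT of Psmb9 and of Tap1 are the same letters of their shared stretch, counted once for each gene. As H2-D1 and H2-K1 are also alike upstream, the 8 genes are not 8 separate observations to set beside those shares. No 2 matches overlap in the sequences printed. The motifs were chosen with these sequences in view and describe letters rather than bound sites. The 5 genes with TGACG are those whose sequences are printed, so the printed sequences do not stand for all 8.

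Levels are given as CPM, a gene's counts relative to the library total, scaled by the trimmed mean of M-values, mean ± SD with n = 4, and changes as log2 fold changes ± SE. Adjusted p-values come from edgeR's quasi-likelihood fit, adjusted by Benjamini-Hochberg over all 15049 genes, and a gene is said to have risen or fallen where that value is under 0.05. Resolution had the highest mean level of all 10 genes. Against homeostasis, 9 of 10 rose in resolution and 0 fell, with Psmb10 as the exception, while 27.5% of all tested genes rose and 53.3% changed in either direction. In inflammation, 7 of 10 rose against homeostasis and 0 fell, beside 19% of all tested genes that rose and 37.2% that changed in either direction. In resolution against inflammation, 6 of 10 rose and 0 fell, beside 8.52% of all tested genes that rose and 7.64% that fell. The median change over the 10 genes was 1.45 in resolution against homeostasis, 0.78 in inflammation against homeostasis and 0.90 in resolution against inflammation, where the median over all tested genes was -0.01, -0.01 and 0.02. Called and at least doubled were 7, 1 and 3 of the 10 genes in the same order, beside 15.2%, 8.85% and 2.11% of all tested genes. Every resolution library lay above every inflammation library in 6 of the 10 genes and below in 0, beside 8.94% and 9.93% of all tested genes. Against homeostasis the same held for resolution in 9 genes and for inflammation in 6, beside 21.9% and 18.1% of all tested genes. The comparisons share libraries, so the 3 counts are not independent of one another.

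**Figure D1:**
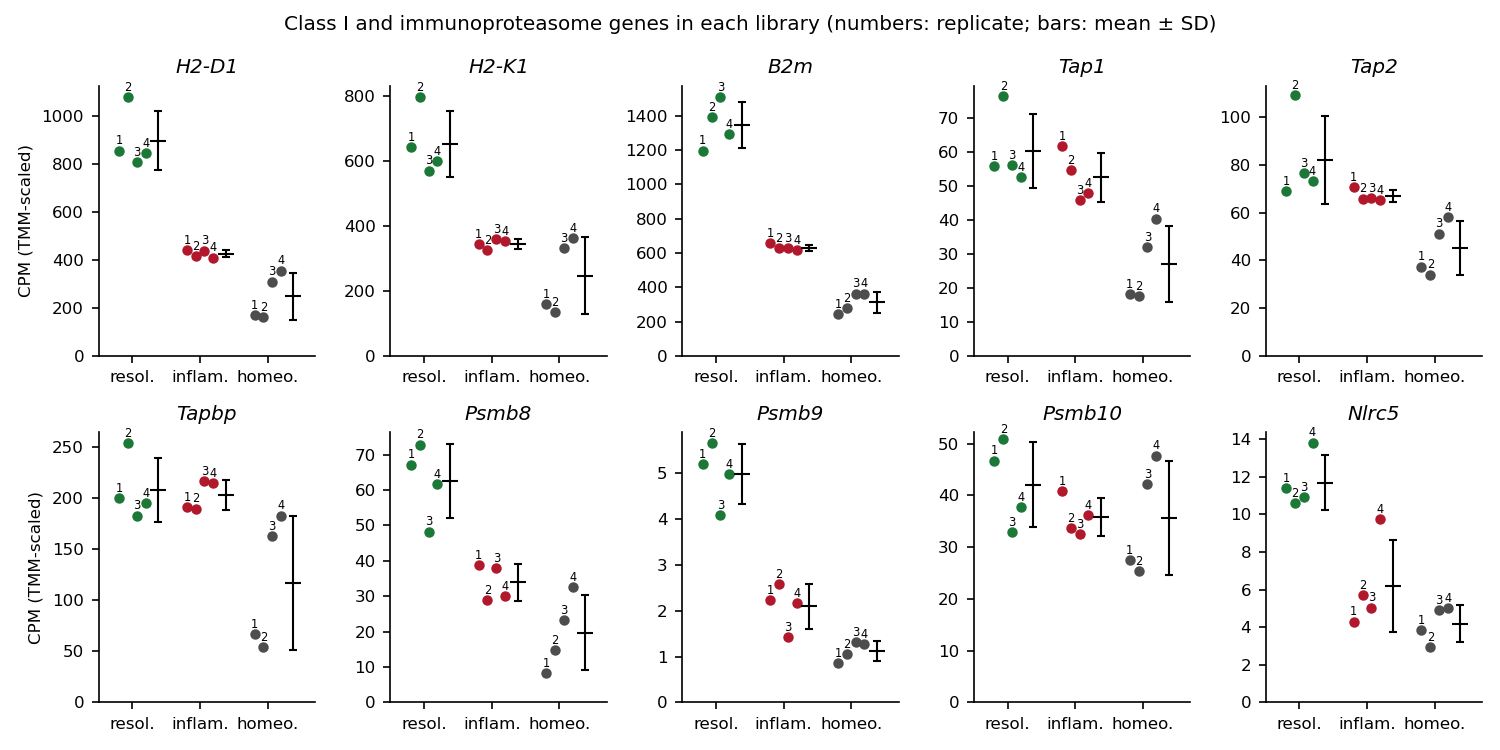
Level of each of the 10 genes in CPM (linear axes from 0) in the 4 libraries of resolution, inflammation and homeostasis, numbered by replicate, with mean ± SD beside them. Resolution lies above the other groups in H2-D1, H2-K1, B2m, Psmb8, Psmb9 and Nlrc5, and homeostasis 3 and 4 lie above homeostasis 1 and 2 in all 10 panels.

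Several facts of the libraries bear on these comparisons. Total counts ran from 18120745 to 34971537 per library. Within homeostasis, libraries 3 and 4 both exceeded libraries 1 and 2 in all 10 genes, an order found in 28.9% of tested genes, and the median log2 ratio of the pairs was 0.88 over the 10 genes against -0.02 over all. Y-linked transcripts divided the groups: Ddx3y, Eif2s3y, Kdm5d and Uty summed to 0 counts over the resolution libraries and to 3, 0, 0 and 0 over the inflammation libraries, against 2150, 2398, 695 and 737 counts in homeostasis. A comparison with homeostasis thus cannot be told apart from one between libraries without and with Y-linked transcripts, whereas resolution and inflammation did not differ in this way. All 12 fibroblast markers of the list used here were tested, with a summed level of 11117 to 16749 CPM in resolution, 21925 to 25351 CPM in inflammation and 29622 to 31937 CPM in homeostasis. Against homeostasis 1 rose and 9 fell in resolution, and 1 rose and 6 fell in inflammation, where 25.8% and 18.3% of all tested genes fell. The sum rests largely on a few abundant genes such as Col1a1 (mean 3115, 8143 and 9554 CPM in resolution, inflammation and homeostasis). Dcn went the other way against homeostasis (896, 972 and 161 CPM). Markers of macrophages, which also express class I, summed to 66.5 to 74.5 CPM in resolution, 673 to 744 CPM in inflammation and 124 to 165 CPM in homeostasis (19 markers found, with Cx3cr1 at 0 counts in resolution and inflammation). In inflammation this sum rests largely on Lyz2 (mean 397 CPM, against 18.6 CPM in resolution and 50.9 CPM in homeostasis). Of the 16 macrophage markers tested, 10 fell in resolution and 15 rose in inflammation against homeostasis, and 14 fell in resolution against inflammation. Their part in the class I values was not tested. Chondrocyte markers summed to 106 to 148 CPM in resolution, 199.97 to 279 CPM in inflammation and 1029 to 1321 CPM in homeostasis, and their part was not tested either. Marker sums of dendritic or B cells, T or NK cells, endothelium, skeletal muscle and Schwann cells were at most 89.9 CPM in any library. Of the T and NK cell markers, Cd3e, Cd3g, Cd8a and Ncr1 were at 0 counts in every group. In bulk libraries, fewer cells of a type and less RNA per cell cannot be told apart.

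The classical class I heavy chains H2-D1 and H2-K1 were highest in resolution. H2-D1 (ENSMUSG00000073411.11, GRCm38 chr17:35262730-35267499, plus strand) had 854, 1077, 807 and 843 CPM in resolution, 440.0, 416, 438 and 409 CPM in inflammation, and 170.4, 162, 309.7 and 355 CPM in homeostasis. No library of 1 group reached into another, and the order of the groups held throughout. H2-D1 rose in resolution against homeostasis by 1.85 ± 0.20 (3.59-fold, edgeR adjusted p = 4.52e-07), in inflammation against homeostasis by 0.77 ± 0.20 (adjusted p = 0.00481) and in resolution against inflammation by 1.07 ± 0.20 (adjusted p = 0.00101).

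H2-K1 (ENSMUSG00000061232.16, chr17:33996017-34000347, minus strand), the other classical heavy chain, separated resolution alone. It had 643, 798, 571 and 599.8 CPM in resolution, 344, 325, 359 and 354 CPM in inflammation, and 159, 134, 332 and 364 CPM in homeostasis. The resolution libraries were all higher than the rest, while homeostasis 3 and 4 lay within or above the inflammation range. H2-K1 rose in resolution by 1.40 ± 0.24 against homeostasis (2.64-fold, edgeR adjusted p = 6.25e-05) and by 0.92 ± 0.23 against inflammation (adjusted p = 0.0119). Between inflammation and homeostasis its change of 0.48 ± 0.23 did not pass (adjusted p = 0.111), and it was 1.24 (adjusted p = 4.02e-06) with homeostasis 1 and 2 as the only controls and 0.01 with homeostasis 3 and 4.

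The heavy chains are near copies of one another, so reads could be split between rows. The annotated main transcripts of H2-D1 and H2-K1 were 90.7% identical over 1581 aligned bases, yet only 35 of the 1953 stretches of 150 bases in H2-D1 (1.79%) occurred unchanged in a transcript of another gene, H2-Q1, and 0 of the 1470 in H2-K1 did. This holds for exact matches of 150 bases in the reference haplotype. Shorter reads, or placement that allows mismatches, could share more, so the check does not show that reads were kept apart. The sources used here do not say how reads from other alleles were placed. Summed over the 24 heavy chain rows of the table, class I counts rose by 1.38 ± 0.23 in resolution against homeostasis (edgeR adjusted p = 5.46e-05), by 0.69 ± 0.23 in inflammation against homeostasis (adjusted p = 0.0222) and by 0.69 ± 0.23 in resolution against inflammation (adjusted p = 0.0446). H2-D1 and H2-K1 held 58.6% to 75.5% of those counts in each library.

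B2m, the light chain that every class I molecule needs, separated all 3 groups. B2m (ENSMUSG00000060802.8, chr2:122147686-122153083, plus strand) had 1197, 1394, 1511 and 1294 CPM in resolution, 656, 630.4, 626 and 615 CPM in inflammation, and 243, 280.1, 363 and 364 CPM in homeostasis. The 3 groups did not overlap, and inflammation varied least (SD 17.2 CPM, against 135 CPM in resolution and 60.7 CPM in homeostasis). B2m rose by 2.11 ± 0.14 in resolution against homeostasis (4.32-fold, edgeR adjusted p = 4.79e-10), by 1.02 ± 0.14 in inflammation against homeostasis (adjusted p = 1.17e-05) and by 1.09 ± 0.14 in resolution against inflammation (adjusted p = 1.45e-05). It was also the most abundant of the 10 genes per length of its transcript, at 1569 ± 157 CPM per kilobase in resolution, 735 ± 20.04 in inflammation and 363 ± 70.6 in homeostasis, where H2-D1 had 426 ± 58.6, 203 ± 7.30 and 119 ± 46.6 and H2-K1 had 403 ± 62.6, 213 ± 9.30 and 153 ± 72.7. B2m lies inside Patl2 on the opposite strand without sharing exon sequence.

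The peptide loading genes were raised in both doxycycline groups and were not told apart between them. Tap1 (ENSMUSG00000037321.17, chr17:34187553-34197225, plus strand), a subunit of the peptide pump, had 55.7, 76.3, 56.1 and 52.5 CPM in resolution, 61.6, 54.6, 45.7 and 47.8 CPM in inflammation, and 18.3, 17.6, 32.1 and 40.4 CPM in homeostasis. Tap2 (ENSMUSG00000024339.12, chr17:34203527-34216321, plus strand), the partner subunit, had 69.0, 109, 76.4 and 73.2 CPM in resolution, 70.5, 65.9, 66.0 and 65.2 CPM in inflammation, and 37.4, 34.0, 51.2 and 58.1 CPM in homeostasis. For both, the doxycycline groups overlapped each other and lay above every homeostasis library.

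Tap1 rose by 1.16 ± 0.22 in resolution (2.23-fold, edgeR adjusted p = 0.000205) and by 0.96 ± 0.22 in inflammation (adjusted p = 0.00199) against homeostasis. Tap2 rose by 0.86 ± 0.17 (adjusted p = 0.000344) and by 0.57 ± 0.17 (adjusted p = 0.014) in resolution and in inflammation. The inflammation change of Tap2 was 0.32 (adjusted p = 0.158) with homeostasis 3 and 4 as the only controls. Resolution against inflammation gave 0.20 ± 0.22 for Tap1 (edgeR adjusted p = 0.541) and 0.29 ± 0.17 for Tap2 (adjusted p = 0.243). With offsets for transcript length and GC content, an alternative added after seeing the data, these became 0.43 (adjusted p = 0.0482) and 0.51 (adjusted p = 0.00159), so the lack of a call between the doxycycline groups depended on that choice. Tap2 shares 165 and 533 exonic bases with 2 antisense genes that have no row in the table.

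Tapbp (ENSMUSG00000024308.15, chr17:33915899-33929292, plus strand) encodes tapasin, which holds the heavy chain at the pump. It had 199.8, 254, 183 and 195 CPM in resolution, 191, 189.6, 216 and 215 CPM in inflammation, and 66.8, 54.2, 163 and 183 CPM in homeostasis. The widest gap within a group was in homeostasis, where libraries 3 and 4 stood close to the lowest resolution library and libraries 1 and 2 far below it. Tapbp rose by 0.84 ± 0.28 in resolution (edgeR adjusted p = 0.0195) and by 0.80 ± 0.28 in inflammation (adjusted p = 0.0345) against homeostasis. With homeostasis 3 and 4 as the only controls the changes were 0.28 (adjusted p = 0.118) and 0.26 (adjusted p = 0.19), and neither passed. The resolution call was also lost without resolution 2 (0.72, adjusted p = 0.0758), and the inflammation call in 7 of 22 alternatives. Resolution and inflammation differed by 0.04 ± 0.28 (adjusted p = 0.943). Tapbp was counted in part as fractions of reads, and it shares 149 exonic bases with Zbtb22 on the same strand and 904 with an antisense gene.

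**Figure D2:**
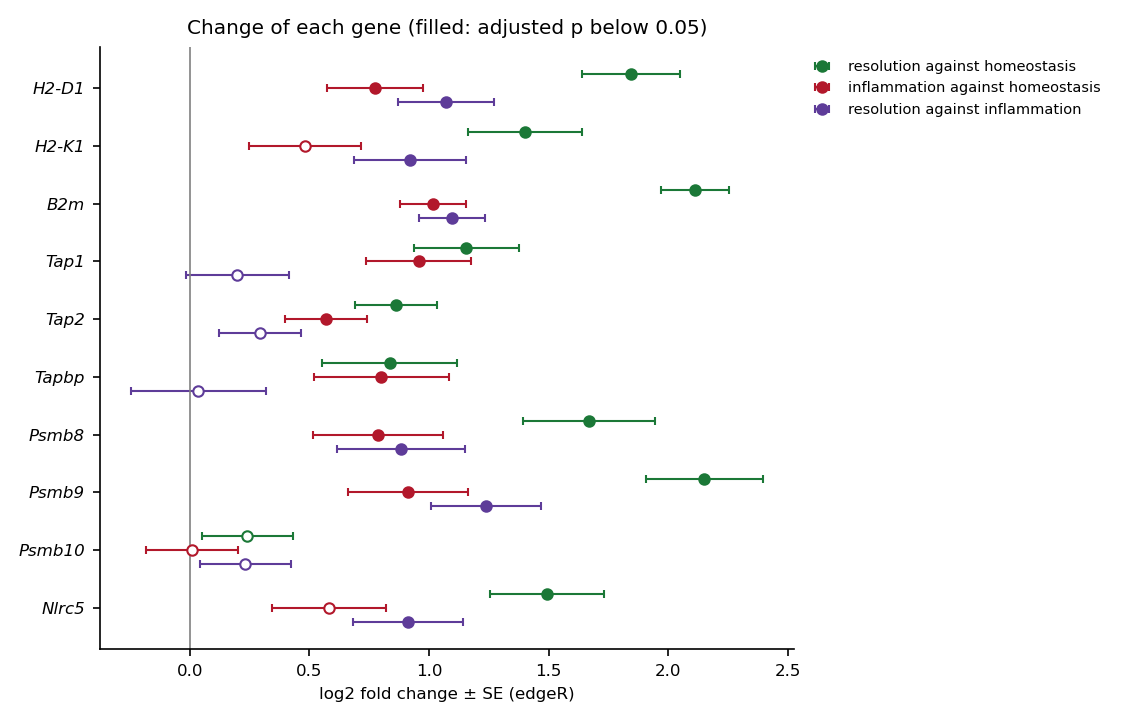
Log2 fold change ± SE of each gene in resolution against homeostasis, inflammation against homeostasis and resolution against inflammation, filled where the edgeR adjusted p is below 0.05. The third comparison is filled for H2-D1, H2-K1, B2m, Psmb8, Psmb9 and Nlrc5 and open for Tap1, Tap2, Tapbp and Psmb10.

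Of the immunoproteasome subunits, Psmb8 and Psmb9 rose and Psmb10 did not pass in any comparison. Psmb9 (ENSMUSG00000096727.3, chr17:34181987-34187764, minus strand) had 5.20, 5.65, 4.08 and 4.99 CPM in resolution, 2.24, 2.58, 1.42 and 2.16 CPM in inflammation, and 0.862, 1.05, 1.31 and 1.27 CPM in homeostasis. These rest on 420, 190 and 102 counts over the 4 libraries of each group, and the groups did not overlap. Psmb9 shares 212 exonic bases with the more abundant Tap1 on the opposite strand, and without a stated strand setting reads of that stretch cannot be told apart. Psmb9 rose by 2.15 ± 0.24 in resolution against homeostasis (4.44-fold, edgeR adjusted p = 6.2e-07), the largest change among the 10 genes, by 0.91 ± 0.25 in inflammation against homeostasis (adjusted p = 0.0076) and by 1.24 ± 0.23 in resolution against inflammation (adjusted p = 0.000929). With homeostasis 3 and 4 as the only controls the inflammation change was 0.73 and missed the threshold (adjusted p = 0.0721).

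Psmb8 (ENSMUSG00000024338.15, chr17:34197721-34201454, plus strand) had 67.1, 72.8, 48.2 and 61.7 CPM in resolution, 38.8, 28.9, 38.0 and 29.9 CPM in inflammation, and 8.22, 14.8, 23.2 and 32.5 CPM in homeostasis. Psmb8 shares 498 exonic bases with an antisense gene that has no row in the table. Resolution stood clear of the other groups, while homeostasis 4 exceeded the inflammation 2 and 4 libraries. Psmb8 rose by 1.67 ± 0.28 in resolution against homeostasis (3.18-fold, edgeR adjusted p = 5.15e-05), by 0.78 ± 0.27 in inflammation against homeostasis (adjusted p = 0.0293) and by 0.88 ± 0.27 in resolution against inflammation (adjusted p = 0.0314). The second of these missed the threshold in 5 of 22 alternatives, among them homeostasis 3 and 4 as the only controls (0.30, adjusted p = 0.234). The third missed the threshold in 7 of 21 alternatives, among them the fit of all libraries blocked on replicate number (0.89, adjusted p = 0.0522), and passed with that block in a fit of resolution and inflammation alone (0.87, adjusted p = 3.98e-05).

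Psmb10 (ENSMUSG00000031897.9, chr8:105935735-105938444, minus strand) had 46.8, 50.9, 32.9 and 37.8 CPM in resolution, 40.9, 33.6, 32.6 and 36.2 CPM in inflammation, and 27.5, 25.3, 42.1 and 47.7 CPM in homeostasis. All 3 groups overlapped. Its changes were 0.24 ± 0.19 in resolution (edgeR adjusted p = 0.302) and 0.01 ± 0.19 in inflammation (adjusted p = 0.977) against homeostasis, and 0.23 ± 0.19 in resolution against inflammation (adjusted p = 0.412). The resolution change was 0.66 (adjusted p = 0.00623) with homeostasis 1 and 2 as the only controls and -0.09 (adjusted p = 0.701) with homeostasis 3 and 4, and 0.58 (adjusted p = 0.00112) with the length and GC offsets. Unlike the other subunits of the immunoproteasome, Psmb10 lies outside the MHC region of chromosome 17. Per kilobase of transcript the homeostasis level of Psmb10 was 27.2 ± 8.36 CPM, that of Psmb8 12.1 ± 6.46 CPM and that of Psmb9 0.830 ± 0.154 CPM.

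Each induced subunit takes the place of 1 constitutive subunit in the proteasome core, Psmb9 that of Psmb6, Psmb10 that of Psmb7 and Psmb8 that of Psmb5. The constitutive genes moved the other way in resolution. Psmb5 fell by 0.45 on the log2 scale (edgeR adjusted p = 0.0406), Psmb6 by 0.58 (adjusted p = 0.00115) and Psmb7 by 0.42 (adjusted p = 0.00605) in resolution against homeostasis, where 25.8% of all tested genes fell. In inflammation against homeostasis their changes were -0.18 ± 0.18, -0.30 ± 0.13 and -0.26 ± 0.12 (edgeR adjusted p = 0.469, 0.0803 and 0.0979). In resolution against inflammation they were -0.28 ± 0.18, -0.28 ± 0.13 and -0.16 ± 0.12 (adjusted p = 0.295, 0.154 and 0.353), and none of these passed. Psmb5 overlapped, with 66.8 to 85.6 CPM in resolution and 64.5 to 131 CPM in homeostasis. The median change in resolution against homeostasis was -0.45 for these genes. It was -0.33 for other subunits and assembly factors of the 20S core and -0.36 for subunits of the 19S regulator, so the fall was not particular to the replaced subunits.

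The ratio of induced to constitutive counts was also compared library by library. Counts were not divided by transcript length, which was 1628 bases for Psmb8, 899 for Psmb5, 1352 for Psmb9 and 798 for Psmb6. The percentages are therefore not shares of molecules. Per kilobase of transcript, Psmb8 stood at 38.4 ± 6.46 CPM and Psmb5 at 84.1 ± 9.38 CPM in resolution. Psmb8 counts equalled 72.2% to 91.9% of Psmb5 counts in resolution, 29.2% to 43.6% in inflammation and 8.26% to 24.8% in homeostasis. Psmb9 counts equalled 3.34% to 3.63% of Psmb6 counts in resolution, 0.880% to 1.45% in inflammation and 0.461% to 0.651% in homeostasis. In both ratios the 3 groups were separate, and the spread of Psmb9 to Psmb6 over the resolution libraries was small (SD 0.05 on the log2 scale). The mean log2 ratio of Psmb9 to Psmb6 was higher by 2.72 in resolution than in homeostasis, by 1.18 in inflammation than in homeostasis and by 1.54 in resolution than in inflammation. For Psmb8 to Psmb5 the differences were 2.24, 1.09 and 1.15 in the same order. Each of these 6 gave p = 0.0286 in a two-sided exact permutation test, the smallest that 4 against 4 libraries allow, and 0.0429 after adjustment over the 9 ratios compared. The inflammation difference of Psmb8 to Psmb5 fell to 0.73 without homeostasis 1.

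For the remaining pair, Psmb10 counts equalled 17.9% to 24.6% of Psmb7 counts in resolution, 14.8% to 18.6% in inflammation and 8.38% to 18.1% in homeostasis. The groups overlapped, and the log2 differences were 0.69 in resolution against homeostasis (exact permutation p = 0.0571, adjusted 0.0643), 0.32 in inflammation against homeostasis (exact permutation p = 0.343) and 0.38 in resolution against inflammation (exact permutation p = 0.0571, adjusted 0.0643). Same-numbered resolution and inflammation libraries were also compared, though their deviations correlated only weakly (0.126 to 0.214 over all tested genes). Resolution 2 correlated best with inflammation 1, and the labels do not say what a number marks. The ratio was higher in resolution in 4 of 4 pairs (by 0.45, 0.72, 0.27 and 0.07, exact sign-flip p = 0.125, the smallest that 4 pairs allow), as were both other ratios.

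**Figure D3:**
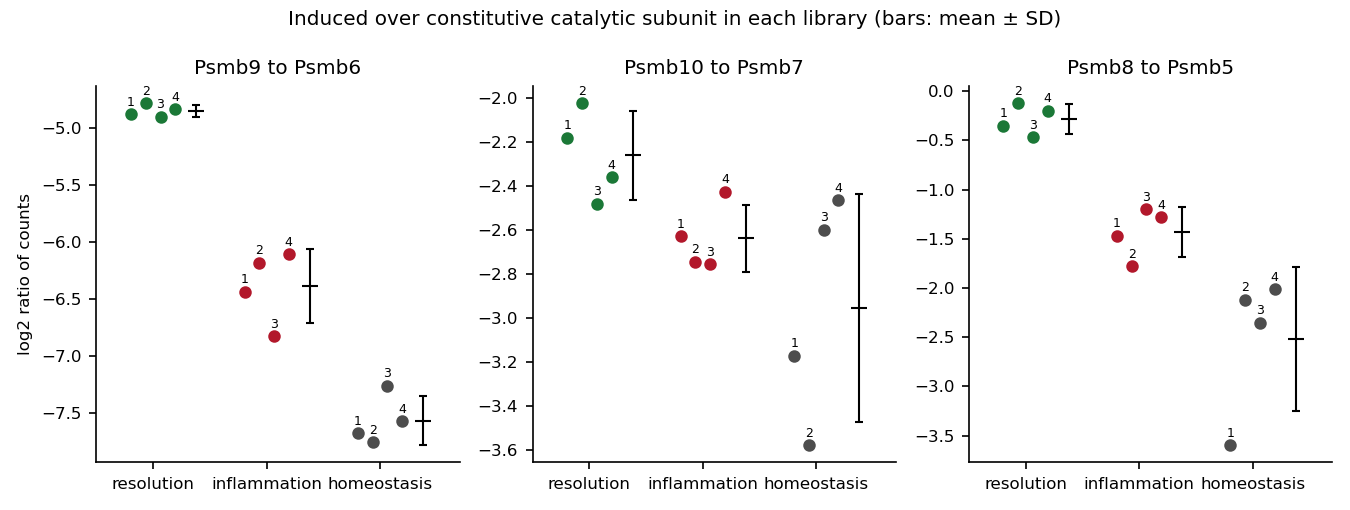
Log2 ratio of counts of each induced subunit to its constitutive counterpart in the 4 numbered libraries of resolution, inflammation and homeostasis, with mean ± SD. The 3 groups are separate for Psmb9 to Psmb6 and Psmb8 to Psmb5 and overlap for Psmb10 to Psmb7.

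Nlrc5, the transactivator of class I genes, was itself highest in resolution. Nlrc5 (ENSMUSG00000074151.13, chr8:94434356-94527272, plus strand) had 11.4, 10.6, 10.9 and 13.8 CPM in resolution, 4.29, 5.69, 5.04 and 9.76 CPM in inflammation, and 3.86, 2.92, 4.90 and 5.03 CPM in homeostasis. Resolution was above every other library, and inflammation 4 stood apart from the other inflammation libraries. Nlrc5 rose in resolution by 1.49 ± 0.24 against homeostasis (2.82-fold, edgeR adjusted p = 3.19e-05) and by 0.91 ± 0.23 against inflammation (adjusted p = 0.0114), and its change of 0.58 ± 0.24 in inflammation against homeostasis did not pass (adjusted p = 0.0629). The inflammation change was 0.29 without inflammation 4, and it passed in 7 of 22 alternatives, among them DESeq2 (adjusted p = 0.0469) and homeostasis 1 and 2 as the only controls (0.89, adjusted p = 0.0196). The resolution call against inflammation missed the threshold without resolution 4 (0.80, adjusted p = 0.0548) and without inflammation 1 (0.76, adjusted p = 0.0547).

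Counted over the 3 comparisons, H2-D1, B2m, Psmb8 and Psmb9 passed in all 3, H2-K1, Nlrc5, Tap1, Tap2 and Tapbp in 2 and Psmb10 in 0. That the peptide loading genes did not pass between resolution and inflammation while H2-D1 and H2-K1 did is a difference between calls. The difference between these genes was not tested. Within the resolution group, library 2 was the highest of the 4 in 8 of the 10 genes, the exceptions being B2m and Nlrc5. Within homeostasis, library 4 was the highest in 9 of 10, with Psmb9 as the exception. How many of all tested genes were highest in these libraries was not counted. Over all tested genes, resolution 2 differed more from each other resolution library than those differed from one another.

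The changes against homeostasis were also computed with each pair of control libraries. Since homeostasis 3 and 4 exceeded 1 and 2 in all 10 genes, smaller changes with 3 and 4 follow from that order and are no separate result. With homeostasis 1 and 2 alone as controls, 10 of the 10 genes rose in resolution and 9 in inflammation, beside 23.2% and 17.7% of all tested genes. With homeostasis 3 and 4 alone, 8 rose in resolution and 3 in inflammation, the 3 being H2-D1, B2m and Tap1, beside 27.4% and 17.8% of all tested genes. In resolution the change of Psmb9 moved least between these choices, being 2.35 with libraries 1 and 2 and 1.96 with libraries 3 and 4, and that of Tapbp moved most, being 1.77 and 0.28.

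**Figure D4:**
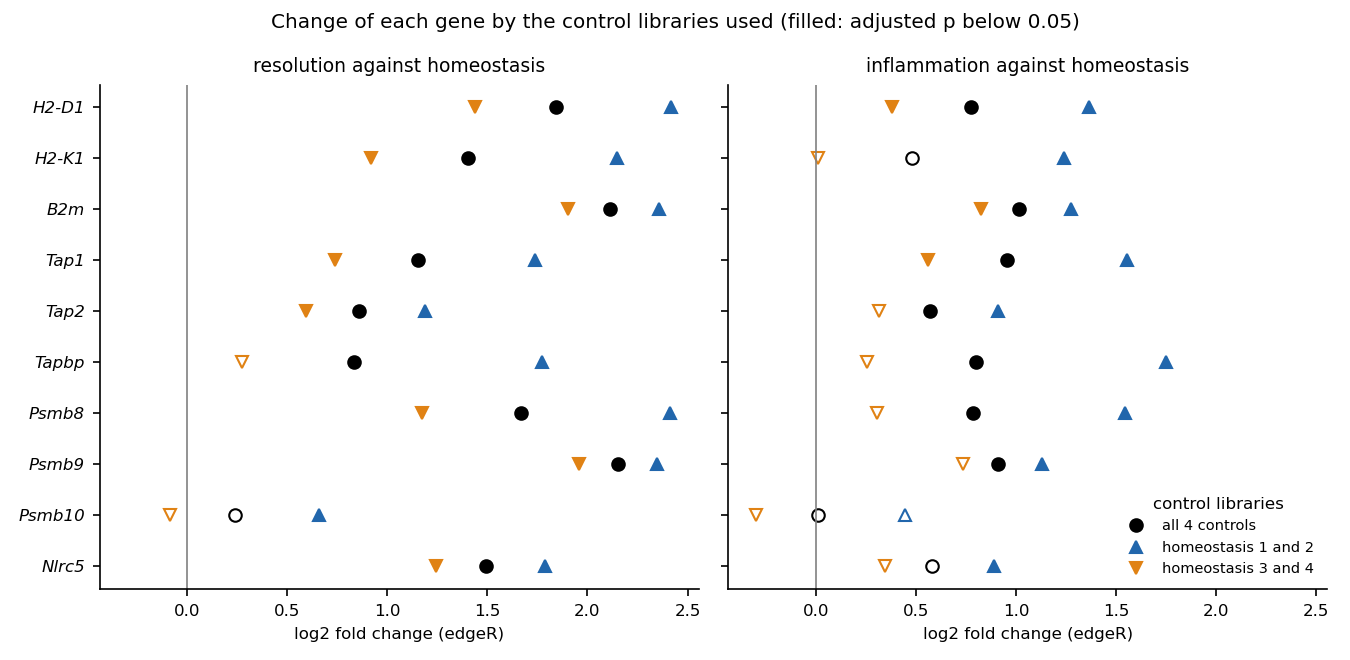
Log2 fold change of each gene in resolution against homeostasis (left) and inflammation against homeostasis (right) with all 4 homeostasis libraries, with homeostasis 1 and 2, or with homeostasis 3 and 4 as controls, filled where the edgeR adjusted p is below 0.05. With homeostasis 3 and 4 the inflammation panel keeps 3 filled points, and H2-K1 and Psmb10 lie at 0.01 and -0.30.

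Across the 12 libraries the 10 genes followed one another to different degrees. Pearson's r between a gene's log2 CPM and the mean of the other 9 was 0.98 for H2-D1 and H2-K1, 0.95 for Psmb8 and Tap2, 0.93 for Tap1, 0.91 for B2m, 0.89 for Psmb9, 0.86 for Tapbp, 0.83 for Nlrc5 and 0.67 for Psmb10. These describe libraries that fall into groups and are given without a test. Among 15039 other tested genes, the 8 most like the mean of the 10 genes were H2-Q1 (r = 0.99), Tmem151a (0.99), H2-T23 (0.98), Macrod1 (0.98), Ube2l6 (0.98), Syt17 (0.97), Irf7 (0.97) and Tspan5 (0.97). H2-Q1 and H2-T23 are nonclassical heavy chains, Ube2l6 is the conjugating enzyme of the ubiquitin-like protein Isg15, and Irf7 is an interferon regulatory factor. Irf7 stood at 294 ± 62.3 CPM in resolution, 103 ± 9.45 CPM in inflammation and 15.9 ± 14.5 CPM in homeostasis, with 2.84 and 5.48 CPM in homeostasis 1 and 2 and 21.5 and 33.9 CPM in homeostasis 3 and 4. Its changes were 4.22 ± 0.67 in resolution (edgeR adjusted p = 0.000445) and 2.69 ± 0.63 in inflammation (adjusted p = 0.00779) against homeostasis and 1.52 ± 0.60 in resolution against inflammation, which did not pass (adjusted p = 0.112). Its groups did not overlap, and homeostasis 3 and 4 lay above homeostasis 1 and 2, as in the 10 genes.

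Of 15 other class I heavy chains and class I-like genes tested, 12 rose and 0 fell in resolution against homeostasis (median 0.72). In inflammation 7 rose and 0 fell (median 0.75). The class I-like genes of this list were Cd1d1, Mr1, Fcgrt and Hfe, none of which is in the heavy chain sum given above. The shares of all tested genes that rose were 27.5% and 19%. H2-T24 rose by 1.80 ± 0.37 (edgeR adjusted p = 0.000395) and 1.86 ± 0.37 (adjusted p = 0.000537), H2-M3, which presents formylated peptides, by 0.99 ± 0.17 (adjusted p = 7.44e-05) and 0.86 ± 0.17 (adjusted p = 0.000539), H2-Q1 by 1.38 ± 0.23 and 0.81 ± 0.23, and H2-T23 by 1.37 ± 0.25 and 0.82 ± 0.24, each in resolution and in inflammation.

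Between resolution and inflammation 4 of the 15 rose and 0 fell, beside 8.52% of all tested genes that rose and 7.64% that fell. The 4 were H2-Q4, H2-Q6, H2-Q7 and the class I-like gene Hfe, named after their values were seen. H2-T22, the most abundant of the 15 and also named after its values were seen, went the other way without a call. It had 271 to 356 CPM in resolution and 373 to 427 CPM in inflammation, so that every resolution library lay below every inflammation library. H2-Q4 had 94.8, 111, 79.5 and 86.9 CPM in resolution, 35.1, 34.3, 36.6 and 44.6 CPM in inflammation, and 25.7, 19.6, 54.8 and 64.8 CPM in homeostasis. H2-Q6 had 19.1, 22.9, 15.3 and 17.1 CPM in resolution, 5.16, 5.36, 6.46 and 6.62 CPM in inflammation, and 4.21, 3.41, 13.6 and 13.8 CPM in homeostasis. The inflammation libraries of both genes lay between homeostasis 1 and 2 below and homeostasis 3 and 4 above. Against homeostasis, inflammation changed by -0.13 for H2-Q4, -0.56 for H2-Q6 and -0.63 for H2-Q7 (edgeR adjusted p = 0.739, 0.209 and 0.0604), none of which passed. They rose in resolution against inflammation by 1.30 ± 0.27 (H2-Q4, edgeR adjusted p = 0.00259), 1.66 ± 0.34 (H2-Q6, adjusted p = 0.00236) and 1.19 ± 0.26 (H2-Q7, adjusted p = 0.00347), and Hfe by 0.66 ± 0.20 (adjusted p = 0.0299). H2-Q genes are close copies, and their rows may share reads.

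Peptide trimming and loading genes outside the 10 changed in both directions. Of 15 tested, 4 rose and 7 fell in resolution and 3 rose and 7 fell in inflammation against homeostasis, and 4 rose and 3 fell in resolution against inflammation. Over all tested genes 27.5%, 19% and 8.52% rose and 25.8%, 18.3% and 7.64% fell, in that order of comparisons. The counts that rose against homeostasis were thus near the shares of all genes. Erap1, which trims peptides in the endoplasmic reticulum, rose by 1.52 ± 0.18 in resolution against homeostasis (edgeR adjusted p = 9.9e-07), by 0.90 ± 0.18 in inflammation against homeostasis (adjusted p = 0.000543) and by 0.62 ± 0.17 in resolution against inflammation (adjusted p = 0.0217). Calr, the chaperone calreticulin of the loading complex, fell by 1.27 (adjusted p = 6.67e-07), 0.78 (adjusted p = 0.000316) and 0.49 (adjusted p = 0.0242) in the same comparisons. Pdia6, a disulfide isomerase, fell by 1.49, 0.80 and 0.69 (adjusted p = 1.56e-08, 6.27e-05 and 0.000883). Blmh, a cytosolic peptidase, fell by 1.07 in resolution (adjusted p = 4.38e-06) and 1.21 in inflammation (adjusted p = 2.27e-06) against homeostasis.

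Proteasome genes outside the induced subunits did not rise as a set. For scale, 27.5% of all tested genes rose and 25.8% fell in resolution against homeostasis, and 19% rose and 18.3% fell in inflammation. Of 16 other subunits and assembly factors of the 20S core tested, 1 rose and 8 fell in resolution and 0 rose and 3 fell in inflammation against homeostasis. Those with the smallest adjusted p in resolution were Psmg1, Psma7, Psmg2 and Psmb2, which fell by 0.78, 0.69, 0.61 and 0.57 on the log2 scale. Of 18 subunits of the 19S regulator, 2 rose and 11 fell in resolution and 1 rose and 8 fell in inflammation, with Psmc6 rising by 0.93 ± 0.14 and Psmd3, Psmd7 and Psmd13 falling by 0.69, 0.60 and 0.60 in resolution against homeostasis. Among the 4 proteasome activators, Psme1 and Psme2, which form the interferon-inducible PA28 ring, rose by 0.40 ± 0.13 (edgeR adjusted p = 0.0134) and 0.50 ± 0.18 (adjusted p = 0.0261) in resolution against homeostasis, Psme4 rose by 1.63 ± 0.20 (adjusted p = 1.87e-06) and Psme3 fell by 0.55 (adjusted p = 0.000643). Psme1 and Psme2 did not pass in inflammation against homeostasis (0.14 and 0.33).

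The transcription factors of the pathway, a list that mixes interferon-activated factors with other kinds, did not move together. Of 21 tested, 4 rose and 9 fell in resolution and 4 rose and 10 fell in inflammation against homeostasis. Among all tested genes 27.5% rose and 25.8% fell in resolution, and 19% rose and 18.3% fell in inflammation. Stat2, a subunit of the factor that type I interferons activate, rose by 1.84 ± 0.19 in resolution (edgeR adjusted p = 2.4e-07) and by 1.74 ± 0.19 in inflammation (adjusted p = 9.94e-07) against homeostasis. Between resolution and inflammation its change of 0.10 ± 0.19 did not pass (adjusted p = 0.738). Irf9, named after its values were seen, had 65.5 ± 7.25 CPM in resolution, 60.5 ± 1.15 CPM in inflammation and 30.1 ± 13.2 CPM in homeostasis. Every library of both doxycycline groups lay above every homeostasis library in Irf9.

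Irf1, a direct activator of class I promoters, showed another pattern. Irf1 had 35.2, 40.1, 29.1 and 35.4 CPM in resolution, 27.5, 23.8, 27.0 and 27.3 CPM in inflammation, and 32.5, 33.7, 39.5 and 43.8 CPM in homeostasis. It did not pass in resolution against homeostasis (-0.10 ± 0.14, edgeR adjusted p = 0.59) and fell by 0.50 in inflammation (adjusted p = 0.00967). Nfkb2 fell by 1.18 (adjusted p = 2.57e-05) and 0.94 (adjusted p = 0.000499), and Ezh2, the methyltransferase of a complex that silences class I genes in some tumours, fell by 1.67 (adjusted p = 8.16e-07) and 1.31 (adjusted p = 2.55e-05), each in resolution and in inflammation against homeostasis.

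Ifng, Ifnb1 and Tnf transcripts were scarce. Ifng had 0 counts in all 12 libraries, which allows up to 0.0858 to 0.166 CPM per library, and Ifnb1 had 0 counts in the 4 homeostasis libraries and at most 0.391 CPM in any other. Of the 13 ligands, receptors and kinases tested, 5 rose and 3 fell in resolution and 2 rose and 1 fell in inflammation against homeostasis. In the same comparisons 27.5% and 19% of all tested genes rose and 25.8% and 18.3% fell. Jak2, a kinase of the interferon gamma receptor, rose by 1.27 ± 0.16 in resolution against homeostasis (edgeR adjusted p = 2.66e-06) and by 1.05 ± 0.16 in resolution against inflammation (adjusted p = 0.000135), and Jak1 by 0.94 ± 0.18 (adjusted p = 0.000171) and 0.67 ± 0.17 (adjusted p = 0.0132). Tnf averaged 0.307 ± 0.143 CPM in resolution, 1.02 ± 0.518 CPM in inflammation and 3.97 ± 2.20 CPM in homeostasis. It fell by 3.66 in resolution (adjusted p = 3.65e-06) and 1.96 in inflammation (adjusted p = 0.000986) against homeostasis. Whether transcripts of the unnamed transgene would be counted in the Tnf row is not stated, so these values may leave out part of the TNF message. All 5 tested genes of the ubiquitin-like conjugation list rose in both doxycycline groups, among them Herc6, the ligase of Isg15 in the mouse, by 2.55 ± 0.18 in resolution (adjusted p = 8.19e-10) and 1.61 ± 0.17 in inflammation (adjusted p = 7.46e-07), Usp18, which removes Isg15, by 3.95 ± 0.59 and 3.83 ± 0.59, and Ube2l6 by 1.32 ± 0.20 and 0.87 ± 0.20. Of these, Herc6 alone rose in resolution against inflammation, by 0.93 ± 0.17 (adjusted p = 0.00068).

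Class II presentation genes, read here as a contrast, were low. Of 6 tested, 3 rose and 1 fell in resolution and 3 rose and 0 fell in inflammation against homeostasis. Shares over all tested genes were 27.5% and 19% that rose and 25.8% and 18.3% that fell. The 3 that rose in resolution were the peptide editors H2-DMb1 (1.26 ± 0.16), H2-DMb2 (1.29 ± 0.26) and H2-DMa (0.65 ± 0.19), and Cd74, the invariant chain, fell by 2.20 (edgeR adjusted p = 0.00967). Cd74 was at 1.82 ± 0.573 CPM in inflammation, where the macrophage sum was highest, against 0.912 ± 0.576 CPM in homeostasis.

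**Figure D5:**
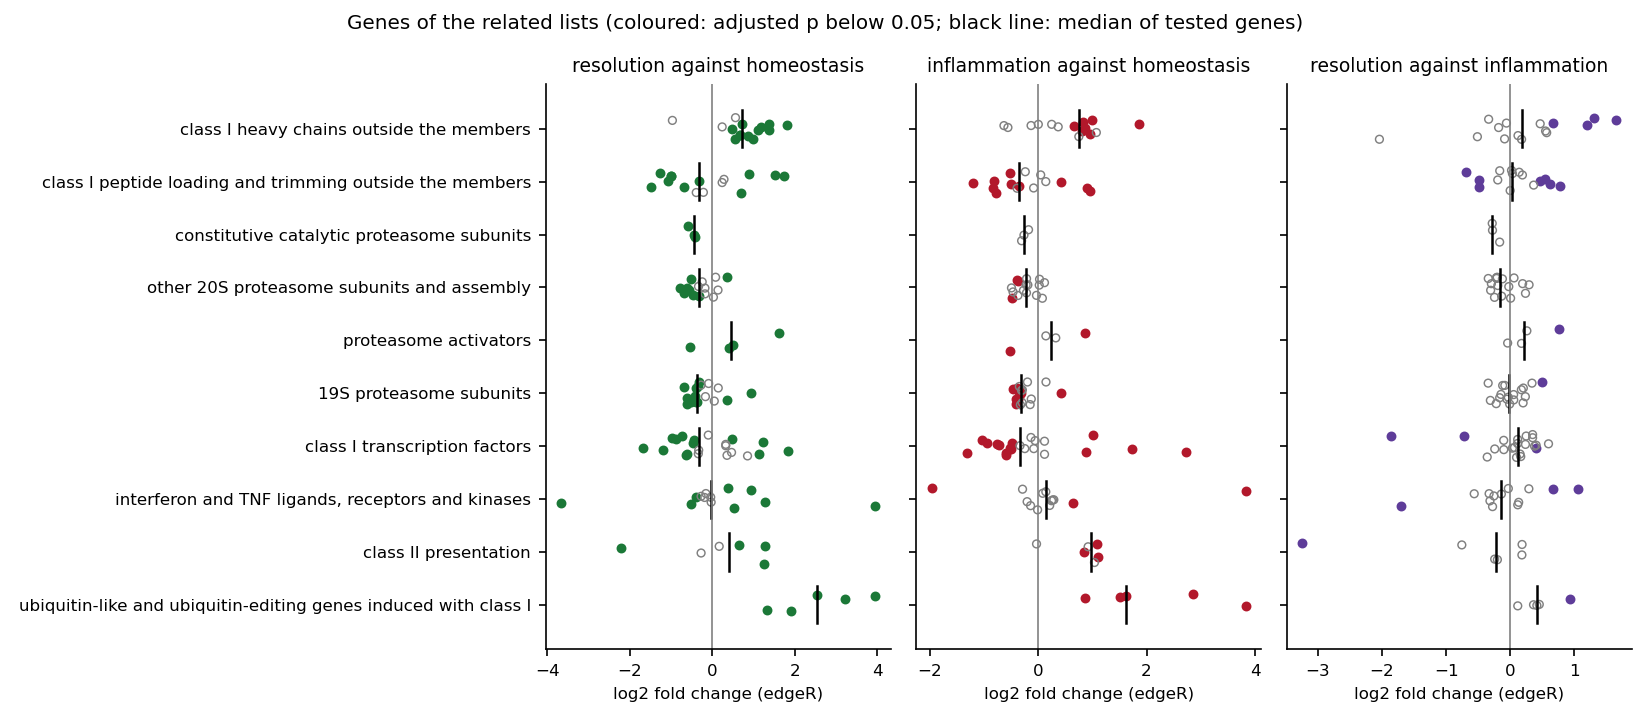
Log2 fold changes of the tested genes of the 10 related lists in resolution against homeostasis, inflammation against homeostasis and resolution against inflammation, coloured where the edgeR adjusted p is below 0.05, with the median of each list as a black line. The medians of the heavy chains outside the 10 genes and of the ubiquitin-like genes lie to the right of 0 in the comparisons with homeostasis, H2-Q4, H2-Q6 and H2-Q7 lie to the left in inflammation, and constitutive and other proteasome subunits lie mostly to the left.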

How the data were processed

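RNA of cultured synoviocytes was sequenced with poly(A) selection and paired reads on a NovaSeq, per the labels' protocols. The authors deposited 1 table of estimated counts per gene, of which 1.43% of values are not whole, with GRCm38.p3 named as genome build in the submitters' processing notes. The sources used here name no aligner, counter, annotation or strand setting. Of 36930 entries, 13 had no value and 42 repeated 34 symbols; repeats were summed and counts rounded. Total counts ran from 18120745 to 34971537 per library, so that 3 counts equal 0.0858 to 0.166 CPM; intervals and floors cover counting error only.

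Groups came from the titles and descriptions. edgeR 4.0.16 (R 4.3.3) fitted all 12 libraries with TMM factors, filterByExpr and a robust quasi-likelihood test, with adjusted p under 0.05 as the threshold; SE is the log2 change divided by the square root of F. Ratios used counts plus 0.5. DESeq2 1.42.0, other normalizations and filters, left-out libraries, subsets of controls, the replicate number as a block and GC and length offsets were alternatives. Scripts were tested on simulated data. Deviations of same-numbered resolution and inflammation libraries correlated weakly (0.126 to 0.214), with resolution 2 correlating best with inflammation 1, and neither group paired with homeostasis (-0.228 to 0.080). Loci are GENCODE M21 annotation (GRCm38), and promoters RefSeq (GRCm38.p6). Transcript lengths and GC content were matched for 93.9% of tested genes.

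The members and lists were chosen with earlier results of these data known. Named list genes are the 4 with the smallest adjusted p in resolution against homeostasis, and others are named for their role or, where stated, after their values were seen; the genes most like the set are the 8 with the highest r. Of 218 list symbols, 212 matched as written and 1 through an older symbol. A gene of the transcription factor list is not reported here.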

Additional observations from a re-analysis of the deposited data

Results flagged for a closer look

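Over the 10 genes and the 3 ratios, 39 groups of 4 libraries were searched for a single library far from the other 3, and 2 were found, where chance gives about 1 in 20 groups. Tap1 stood at 76.3 CPM in resolution 2, while the next library had 56.1 CPM and the lowest 52.5 CPM. Tap2 stood at 70.5 CPM in inflammation 1, while the next library had 66.0 CPM and the lowest 65.2 CPM, a narrow range in absolute terms.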

How the results depend on the processing

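The calls of H2-D1, B2m and Psmb9 in resolution against homeostasis and against inflammation, and those of H2-K1 in both, held in every alternative run, as did those of Tap1, Tap2, Psmb8 and Nlrc5 in resolution against homeostasis. Leaving out each library in turn, 8 to 9 of the 10 genes were called in resolution against homeostasis, 5 to 9 in inflammation against homeostasis and 4 to 6 in resolution against inflammation, beside 24.4% to 28%, 15% to 20.1% and 3.15% to 15.4% of all tested genes called higher, and 3 were called in inflammation with homeostasis 3 and 4 as the only controls. The count of all genes called in resolution against inflammation was 2431, ran from 1242 to 4191 with 1 library left out (1242 without resolution 4, 1299 without resolution 3, 1351 without inflammation 2, 1443 without inflammation 1, 1584 without resolution 1 and 4191 without resolution 2), and was 1898 with the replicate block over all libraries and 4808 with the replicate block over resolution and inflammation alone. The block changed no other call among the 10 genes than that of Psmb8. Changes near 0 turned sign: Tapbp in resolution against inflammation was -0.011 with upper-quartile factors, -0.077 without resolution 2, -0.0025 without inflammation 1 and -0.0094 without inflammation 2, in a range of -0.077 to 0.083 with 1 library left out. Psmb10 in inflammation against homeostasis was -0.00077 with no filter, -0.04 without inflammation 1, -0.07 without homeostasis 1, -0.10 without homeostasis 2 and -0.30 with homeostasis 3 and 4, in a range of -0.10 to 0.20 with 1 library left out, and in resolution it was -0.085 with homeostasis 3 and 4. Upper-quartile factors gave 3297 higher and 2151 lower genes in inflammation against homeostasis, where the scaling used gave 2852 and 2750, and 1011 and 1318 in resolution against inflammation, where it gave 1282 and 1149. With GC and length offsets, added after seeing the data, 10, 9 and 9 of the 10 genes were called in the 3 comparisons, beside 28.6%, 22.4% and 8.46% of all tested genes called higher. The inflammation difference of Psmb8 to Psmb5 ran from 0.73 to 1.26 with 1 library left out. The cause of these shifts was not tested.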
